A study of Mus musculus with 4 samples.

Results

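Lin28a, Lin28b, Hmga1, Hmga2, Igf2bp1, Igf2bp2, Igf2bp3, Ikzf1 and Casz1 are genes tied to the early or late competence of progenitor cells. They were grouped as temporal identity genes or as targets of let-7 microRNAs. These 9 genes were taken by name, without use of their values, from 21828 genes of a mouse retina RNA-seq series, and each had an FPKM value (a read number scaled to transcript length and to mapped reads) in all 4 libraries. The series asked which transcripts mark Müller glia, the glial cells of the retina, as they arise after birth. Retinas came from FVB/N mice carrying a pHes1-EGFP transgene, in which a Hes1 promoter drives a destabilized EGFP, and every library shares this transgene. Cells were sorted into EGFP-positive cells (pHes1_EPC) and EGFP-negative cells (pHes1_ENC) at postnatal day 1 (P1) and postnatal day 4 (P4). Each of these 4 groups was 1 library, and the number of animals behind it is not given in the sources used here. The Hes1 promoter is active in progenitors as well as in Müller glia, so pHes1_EPC is a mixture by design, and pHes1_ENC holds every other retinal cell in the sort.

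LIN28A and LIN28B are RNA-binding proteins that block the maturation of let-7 microRNAs, and let-7 in turn represses the LIN28 transcripts. HMGA1 and HMGA2 are architectural chromatin proteins and IGF2BP1, IGF2BP2 and IGF2BP3 are RNA-binding proteins of fetal tissues, and Hmga2 and the Igf2bp genes are textbook let-7 targets. In the retina, Ikzf1 (Ikaros) is known to confer early competence on progenitors, whereas Casz1 is known to act in later progenitors and in rod photoreceptors.

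The let-7 family defines what many of these genes share, so its seed is shown first. A microRNA pairs with its targets mainly through its seed, bases 2 to 8 of the mature strand. Of 11 mature sequences of the family in the RefSeq mouse table (GRCm38.p6), 10 carried the seed GAGGUAG, and miR-1961 was the only other mature mouse microRNA in that table with it. The members below, 5′ to 3′ with the seed in capitals, show the shared seed across the divergent remainder, and let-7j shows the seed that differed.
let-7a-5p: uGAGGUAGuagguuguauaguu
let-7b-5p: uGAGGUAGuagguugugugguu
let-7e-5p: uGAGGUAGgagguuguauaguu
let-7i-5p: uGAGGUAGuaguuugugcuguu
miR-98-5p: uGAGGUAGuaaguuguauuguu
let-7j: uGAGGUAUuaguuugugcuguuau

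The complement of this seed was searched in the longest annotated 3′ UTR of each gene on the transcript strand (GENCODE vM1 on NCBIM37, the mm9 build of the files). A match was CTACCTC, 7 bases, and an 8-base match was CTACCTCA. At least 1 match lay in 1695 of 18812 genes with an annotated 3′ UTR (9.01%), and in 7 of the 9 genes. At least 4 matches lay in 9 genes (0.0478%), and Hmga2, Igf2bp1 and Lin28b were 3 of these 9. Over their combined 27.3 kb of 3′ UTR the 9 genes held 17 matches, or 0.622 per kb, against 0.0764 per kb over all genes. Casz1 and Ikzf1 held no match in 2318 and 3345 bases of 3′ UTR. A match is a run of letters and not a measured site of repression. The 9 genes were grouped in part as known let-7 targets, so their match counts are not independent of how they were chosen.

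The matches of Hmga2, Igf2bp1 and Lin28a, and 1 match each of Lin28b, Igf2bp2, Igf2bp3 and Hmga1, are printed because the expression values of these genes follow below. Each line gives 22 bases of the transcript 5′ to 3′, with the match in capitals. Every one of these stretches lay in the last exon of its gene.
Hmga2, chr10:119801280-119801301, minus strand, base 58 of the 3′ UTR: ccgacattcaatttCTACCTCA
Hmga2, chr10:119800043-119800064, minus strand, base 1295: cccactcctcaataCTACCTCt
Hmga2, chr10:119799605-119799626, minus strand, base 1733: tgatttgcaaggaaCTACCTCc
Hmga2, chr10:119798747-119798768, minus strand, base 2591: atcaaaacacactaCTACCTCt
Igf2bp1, chr11:95823092-95823113, minus strand, base 1715: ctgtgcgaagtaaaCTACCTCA
Igf2bp1, chr11:95820671-95820692, minus strand, base 4136: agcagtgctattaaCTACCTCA
Igf2bp1, chr11:95820077-95820098, minus strand, base 4730: tataaatggatgaaCTACCTCA
Igf2bp1, chr11:95819454-95819475, minus strand, base 5353: cttttggttttaatCTACCTCt
Lin28a, chr4:133561104-133561125, minus strand, base 909: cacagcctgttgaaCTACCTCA
Lin28a, chr4:133560466-133560487, minus strand, base 1547: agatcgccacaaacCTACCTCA
Lin28b, chr10:45100828-45100849, minus strand, base 36: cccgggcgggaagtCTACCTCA
Igf2bp2, chr16:22059546-22059567, minus strand, base 1313: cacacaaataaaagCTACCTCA
Igf2bp3, chr6:49036786-49036807, minus strand, base 548: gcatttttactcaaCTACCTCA
Hmga1, chr17:27700223-27700244, plus strand, base 801: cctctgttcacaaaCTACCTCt

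**Figure D1:**
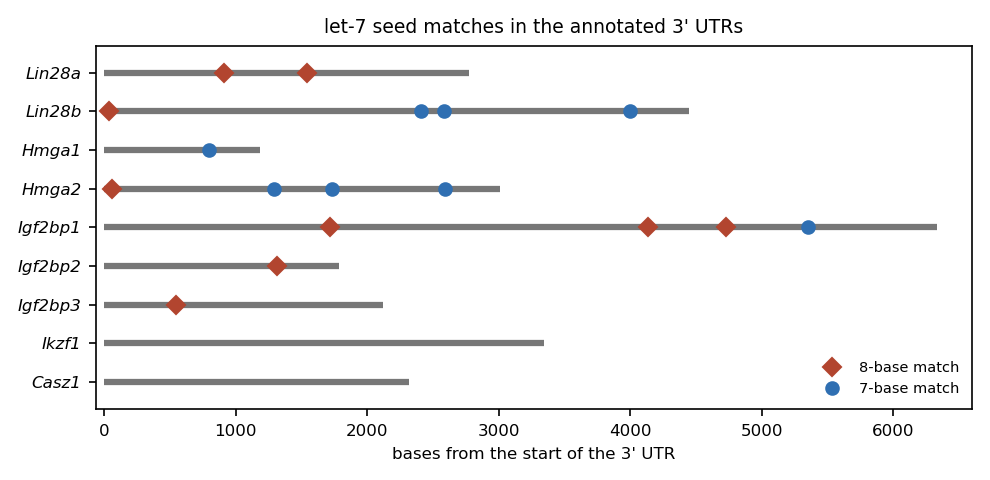
Positions of let-7 seed matches (horizontal axis, bases from the start of the 3′ UTR) in the longest annotated 3′ UTR of each gene (grey line). Diamonds are 8-base and circles 7-base matches, and Hmga2, Igf2bp1 and Lin28b hold 4 each whereas Ikzf1 and Casz1 hold none.

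The libraries were of similar depth. From the widths of the Cufflinks 95% intervals over 7954 genes, the relative depth was 0.961, 0.938 and 0.943 in P1 pHes1_EPC, P4 pHes1_ENC and P4 pHes1_EPC against 1 in P1 pHes1_ENC. Hes1 itself was at 16.6 FPKM in pHes1_ENC and 105 FPKM in pHes1_EPC at P1, and at 3.59 and 93.5 FPKM at P4. In 3 of the 4 libraries the Hes1 value lay above its own interval, whereas every value of the 9 genes lay within its interval. The Müller glia, progenitor, S-phase and G2/M marker lists summed higher in pHes1_EPC at both ages and the rod list (summed FPKM 721 and 5536 in pHes1_ENC at P1 and P4, 55.6 and 1090 in pHes1_EPC) summed higher in pHes1_ENC. A group of 1 library has no replicate spread, so no test was made. Differences are therefore given as log2(FPKM + 1) of one library minus another, called past 2-fold when over 1 or under -1, and the 95% intervals cover counting error only, not the spread between animals. In such mixtures fewer cells of a type and less RNA per cell cannot be told apart.

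Between the fractions at P1, none of the 9 genes was past 2-fold on the log2(FPKM + 1) scale, whereas by the ratio alone 3 were, Lin28a lower and Hmga2 and Ikzf1 higher in pHes1_EPC. Among all genes 6.1% were past 2-fold higher and 6.79% lower in pHes1_EPC. At P4, Hmga2 was past 2-fold higher and Casz1 past 2-fold lower in pHes1_EPC, beside 9.85% and 5.42% of all genes. From P1 to P4 in pHes1_ENC, Casz1 was past 2-fold higher and Hmga2, Igf2bp1 and Igf2bp2 past 2-fold lower, beside 2.77% and 5.94% of all genes. With quantile normalization Hmga2 (-0.92), Igf2bp2 (-0.95) and Casz1 (0.93) were within 2-fold there, and Casz1 (0.90) also when libraries were rescaled to the same total. From P1 to P4 in pHes1_EPC, Igf2bp1 and Igf2bp2 were past 2-fold lower and no member was past 2-fold higher, beside 2.57% and 4.17% of all genes. The median difference of the 9 genes over these comparisons, in the same order, was 0.23, 0.14, -0.24 and -0.40. It was 0.02, 0.15, -0.01 and 0.17 over the 12941 genes with at least 1 FPKM in a library. These sets are unlike, as Lin28a, Lin28b and Ikzf1 were under 1 FPKM in every library but count among the 9. The background in P4 pHes1_EPC depended on scaling. With median-of-ratios scaling, 7.78% of genes were higher and 6.86% lower between the fractions at P4, and 2.81% higher and 3.56% lower between ages in pHes1_EPC.

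**Figure D2:**
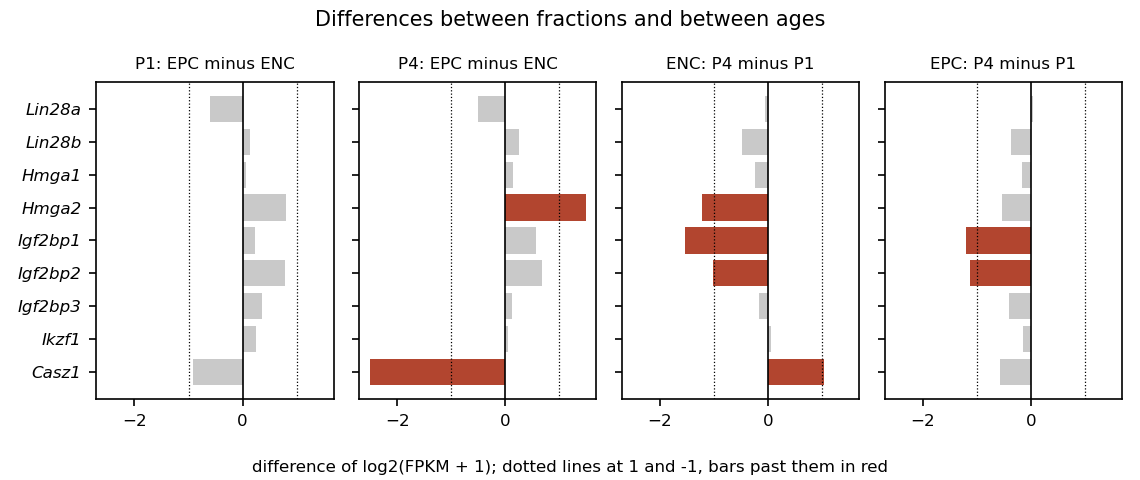
Differences of log2(FPKM + 1) (horizontal axis) for the 9 genes in the 4 comparisons, with bars past 1 or -1 in red. Hmga2 at 1.48 and Casz1 at -2.51 stand out between the fractions at P4, and Igf2bp1 and Igf2bp2 lie below -1 between ages in both fractions.

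The LIN28 genes were at the low end of detection, and they differed in where the reads fell. Lin28a was at 0.555 and 0.0233 FPKM in pHes1_ENC and pHes1_EPC at P1, and at 0.491 and 0.0470 FPKM at P4. Both EGFP-negative libraries were above both EGFP-positive ones, and their intervals (0.397 to 0.711 and 0.339 to 0.643 in pHes1_ENC) did not overlap those of pHes1_EPC (0 to 0.0548 and 0.0111 to 0.0885). The ratio was 23.9-fold at P1, with at least 7.25-fold allowed by the intervals, and 10.5-fold at P4, with 3.83- to 58.1-fold allowed. On the log2(FPKM + 1) scale these differences of -0.60 and -0.51 stayed within 2-fold, because the added 1 exceeded every Lin28a value. The interval widths correspond to 50 and 42 reads in pHes1_ENC and to 7 reads in P4 pHes1_EPC. Of the 36-base stretches of the annotated Lin28a transcript, 12.1% recurred elsewhere in the genome, mostly at a place on chromosome 7.

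Lin28b had its highest value in the other fraction. It was at 0.560 and 0.712 FPKM in pHes1_ENC and pHes1_EPC at P1, and at 0.121 and 0.334 FPKM at P4. The intervals of the P1 libraries overlapped (0.438 to 0.680 and 0.572 to 0.847), whereas at P4 pHes1_EPC was 2.75-fold above pHes1_ENC (1.33- to 6.53-fold). With age Lin28b was 4.62-fold lower in pHes1_ENC (2.41- to 10.4-fold) and 2.13-fold lower in pHes1_EPC (1.34- to 3.49-fold). The log2(FPKM + 1) differences between ages were -0.48 and -0.36, within 2-fold on that scale. In P1 pHes1_ENC the levels of Lin28a and Lin28b were alike, with overlapping intervals, and in both pHes1_EPC libraries Lin28b was above Lin28a with intervals apart. In P4 pHes1_ENC the order was the opposite, with Lin28a above Lin28b and intervals apart. Between different genes these intervals do not cover errors of transcript length or of read placement.

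**Figure D3:**
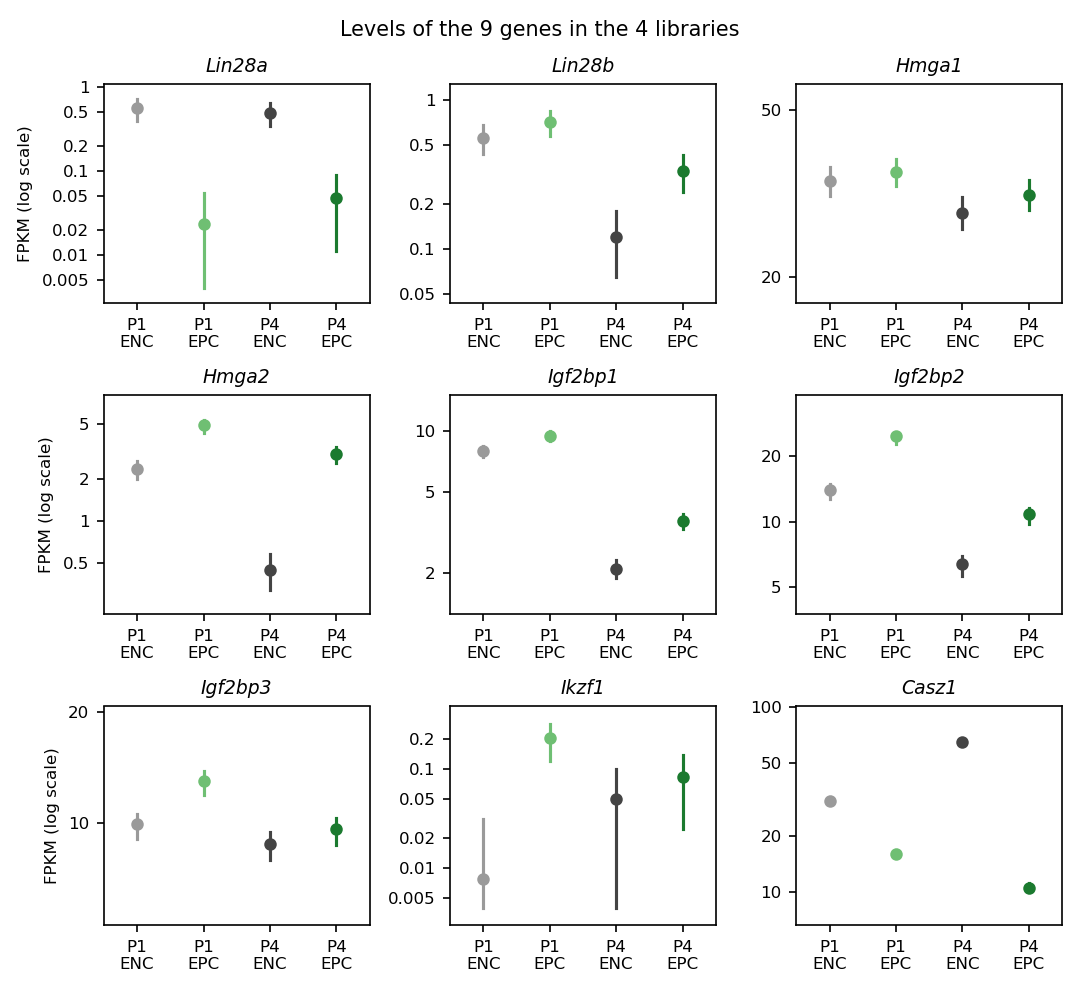
FPKM (vertical axis, log scale, a different range in each panel) of the 9 genes in the 4 libraries. Points are the deposited values and bars their 95% Cufflinks intervals, cut at the axis where they reach 0. Lin28a is higher in both pHes1_ENC libraries, Hmga2 is lowest in P4 pHes1_ENC at 0.445, and Casz1 is highest there at 64.6.

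Hmga2, the chromatin protein of fetal stem and progenitor cells, was the only one of the 9 genes past 2-fold higher in pHes1_EPC on the log2(FPKM + 1) scale, at P4. It was at 2.36 and 4.89 FPKM in pHes1_ENC and pHes1_EPC at P1, and at 0.445 and 3.04 FPKM at P4. P4 pHes1_ENC was the lowest and P1 pHes1_EPC the highest, with intervals apart from the rest, and the intervals of the other libraries overlapped (2.02 to 2.70 in P1 pHes1_ENC and 2.63 to 3.40 in P4 pHes1_EPC). The ratio of pHes1_EPC to pHes1_ENC was 2.07-fold at P1 (from 1.60- to 2.65-fold) and 6.84-fold at P4 (4.58- to 10.6-fold), with log2(FPKM + 1) differences of 0.81 and 1.48. With age Hmga2 was 5.31-fold lower in pHes1_ENC (3.52- to 8.45-fold, log2 difference -1.22) and 1.61-fold lower in pHes1_EPC (1.27- to 2.04-fold, log2 difference -0.54). The decrease with age was thus larger in pHes1_ENC than in pHes1_EPC, a contrast that was not tested. G2/M markers took the order of Hmga2 over the libraries, their summed FPKM being 317 (pHes1_ENC) and 1118 (pHes1_EPC) at P1, then 41.4 and 511 at P4. The S-phase list (331 and 1462, then 153 and 596), the progenitor list (1130 and 3105, then 535 and 2183) and Hes1 took this order too. The Müller glia list did not, with 1686 at P1 and 3173 at P4 in pHes1_EPC. The part of these markers in the Hmga2 values was not tested.

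Part of the Hmga2 transcript cannot be assigned uniquely. Of its 36-base stretches, 38.2% recurred elsewhere in the mm9 genome, 1358 of 1453 of them near the pseudogene Hmga2-ps1 (chr1:178764755-178766264). The line of Hmga2-ps1 was at 0.598 and 1.31 FPKM in pHes1_ENC and pHes1_EPC at P1 and at 0.0849 and 0.889 FPKM at P4, the same order as Hmga2. Reads of this shared stretch could belong to either line. Closest to the 4 centred log2(FPKM + 1) values of Hmga2, among 8404 genes reaching 10 FPKM, were 1600021P15Rik, Sept11 and Mical1. Their distances were 0.15, 0.17 and 0.17. The added 1 narrows the differences of Hmga2, at 0.445 to 4.89 FPKM, more than those of these genes. At P4 Sept11 was at 8.39 and 21.5 FPKM in pHes1_ENC and pHes1_EPC, against 0.445 and 3.04 FPKM for Hmga2. A small distance is therefore not a like ratio.

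Hmga1, the chromatin protein related to Hmga2, was nearly level, but its reads are the least certain of the 9 genes. It was at 33.8 and 35.5 FPKM in pHes1_ENC and pHes1_EPC at P1, and at 28.4 and 31.4 FPKM at P4. Its intervals overlapped between the fractions at both ages, with ratios of 1.05 (0.899 to 1.23) and 1.10 (0.931 to 1.31). With age it was 1.19-fold lower in pHes1_ENC (1.01- to 1.40-fold) and 1.13-fold lower in pHes1_EPC, where the intervals overlapped. Of the 36-base stretches of its annotated transcripts, 69.7% recurred elsewhere in the mm9 genome, the highest share among the 9 genes. Reads of these stretches could not be assigned to Hmga1 alone, so its level and its differences are uncertain and a change between libraries could go unseen.

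The IGF2BP genes had lower values at P4 in both fractions, to different degrees. Igf2bp1, which stabilizes target mRNAs in fetal tissues, was at 7.99 and 9.54 FPKM in pHes1_ENC and pHes1_EPC at P1, and at 2.10 and 3.61 FPKM at P4. Both P4 libraries lay well below both P1 libraries. Igf2bp1 was 3.80-fold lower at P4 in pHes1_ENC (3.24- to 4.49-fold, log2 difference -1.53) and 2.64-fold lower in pHes1_EPC (2.30- to 3.02-fold, log2 difference -1.19). The ratio of pHes1_EPC to pHes1_ENC was 1.19-fold at P1 (1.06- to 1.34-fold) and 1.72-fold at P4 (1.43- to 2.07-fold). The genes of closest pattern on the log2(FPKM + 1) scale were Insig1, Celsr2 and Myh10, at distances of 0.25, 0.25 and 0.37. The added 1 narrows the differences of Igf2bp1 more than those of these genes, which had higher values.

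Igf2bp2, the family member with the broadest adult expression, was at 14.0 and 24.8 FPKM in pHes1_ENC and pHes1_EPC at P1, and at 6.39 and 10.9 FPKM at P4. It was higher in pHes1_EPC by nearly the same ratio at both ages, 1.76-fold (1.53- to 1.98-fold) and 1.70-fold (1.40- to 2.05-fold). At P4 it was 2.20-fold lower in pHes1_ENC (1.83- to 2.62-fold, log2 difference -1.03) and 2.28-fold lower in pHes1_EPC (1.96- to 2.58-fold, log2 difference -1.12). AI506816, Slc7a1 and Slc39a10 lay closest to it, at distances of 0.05, 0.08 and 0.18.

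Igf2bp3 was the least variable of the family. It was at 9.95 and 13.0 FPKM in pHes1_ENC and pHes1_EPC at P1, and at 8.76 and 9.62 FPKM at P4. Its only pairs of libraries with intervals apart were the fractions at P1 (1.31-fold higher in pHes1_EPC, 1.12- to 1.53-fold) and the ages in pHes1_EPC (1.35-fold lower at P4, 1.15- to 1.59-fold), among the comparisons made. FPKM is per transcript length, so values can be set in order within the family. The intervals cover counting error only, not errors of transcript length or of read placement between genes. At P1 the order of values was Igf2bp2, Igf2bp3, Igf2bp1 in both fractions, with all intervals apart. In P4 pHes1_ENC Igf2bp3 lay above Igf2bp2 with intervals apart, in P4 pHes1_EPC the intervals of these genes overlapped, and Igf2bp1 was the lowest in each.

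Igf2, the growth factor whose mRNA gave the family its name, was on the other side of the threshold. It was at 10.3 and 24.3 FPKM in pHes1_ENC at P1 and P4 and at 13.7 and 30.7 FPKM in pHes1_EPC, with log2 differences between ages of 1.16 and 1.11. Of 8 genes of the IGF2 axis, Igf2 was the only one past 2-fold higher at P4 in either fraction. Irs1, an adaptor of the insulin and IGF receptors, was past 2-fold lower at P4 in pHes1_ENC (7.75 to 0.973 FPKM) and Irs2, a related adaptor, in pHes1_EPC (8.02 to 2.00 FPKM). The median difference of the list was -0.11 in pHes1_ENC and -0.17 in pHes1_EPC.

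Ikzf1, the Ikaros zinc-finger factor, was barely detected. It was at 0.00774 and 0.203 FPKM in pHes1_ENC and pHes1_EPC at P1, and at 0.0501 and 0.0819 FPKM at P4. The intervals of both pHes1_ENC libraries reached 0, and the width in P1 pHes1_EPC corresponds to 25 reads. Only between the fractions at P1 were the intervals apart, at a ratio of 26.2-fold with a lower bound of 3.92-fold, against an FPKM of pHes1_ENC that is close to 0. Ikzf1 is also a gene of blood and microglial cells. Of 16 microglia markers 6 were past 2-fold higher in P1 pHes1_EPC and 1, Coro1a, past 2-fold lower. Their summed FPKM was 9.27 and 22.1 in pHes1_ENC and pHes1_EPC at P1 and 12.2 and 21.3 at P4. Csf1r was at 0.238 and 1.83 FPKM in the P1 fractions, P2ry12 at 0.221 and 1.84, and no marker was at 0 in any library. The part of microglia in the Ikzf1 values was not tested. Of the 5 genes of the Ikaros family, Ikzf4 was the only one past 2-fold in a comparison, at 4.51 FPKM in P1 and 1.40 FPKM in P4 pHes1_ENC (log2 difference -1.20).

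Casz1, the zinc-finger factor of later progenitors, and Lin28a were the only genes of the 9 with a higher value in pHes1_ENC at both ages. Casz1 was at 31.1 and 16.1 FPKM in pHes1_ENC and pHes1_EPC at P1, and at 64.6 and 10.5 FPKM at P4. All 4 intervals were apart, and the widths correspond to 1278 to 5939 reads. Casz1 was 1.93-fold lower in pHes1_EPC at P1 (1.79- to 2.10-fold, log2 difference -0.91) and 6.13-fold lower at P4 (5.70- to 6.72-fold, log2 difference -2.51). Only 0.380% of all genes had a lower difference between the fractions at P4.

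Between ages Casz1 differed in opposite directions in the fractions. From P1 to P4 it was 2.07-fold higher in pHes1_ENC (1.96- to 2.20-fold, log2 difference 1.03) and 1.53-fold lower in pHes1_EPC (1.38- to 1.70-fold, log2 difference -0.57). Rod markers were all past 2-fold higher at P4 in pHes1_ENC (15 of 15), and 14 of 15 were past 2-fold higher at P4 in pHes1_EPC as well, so the rod list and Casz1 took the same direction in pHes1_ENC and opposite directions in pHes1_EPC. The part of the rod share in the Casz1 values was not tested. Dyrk2, Cep290, a centrosomal and ciliary gene of photoreceptors, and Shroom3 were the genes of closest pattern, at distances of 0.41, 0.41 and 0.43.

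Other genes linked to temporal competence were described by lists. Of 11 early competence genes, 7 were past 2-fold lower in P1 pHes1_EPC, among them Atoh7, the factor required for ganglion cell genesis, at 77.3 FPKM in pHes1_ENC and 3.54 in pHes1_EPC, and Onecut2 at 6.21 and 0.906. Sfrp2, a secreted Wnt modulator of early progenitors, was past 2-fold higher in pHes1_EPC at both ages (9.39 and 50.9 FPKM at P1, 1.57 and 23.7 at P4). At P4, 4 of these 11 genes were past 2-fold lower in pHes1_EPC. From P1 to P4, 6 were past 2-fold lower in pHes1_ENC (median log2 difference -1.48) and 3, Sfrp2, Pou2f1 and Foxn4, in pHes1_EPC (median -0.30), and none was past 2-fold higher. Foxn4, a progenitor factor of amacrine and horizontal cell genesis, was at 34.4 and 4.48 FPKM in pHes1_ENC and at 37.3 and 9.13 FPKM in pHes1_EPC. Markers of early-born neurons took the direction of this list in some comparisons only. Of 8 amacrine markers, 7 were past 2-fold lower in P1 pHes1_EPC (median log2 difference -3.17). With age in pHes1_ENC, 5 amacrine markers were past 2-fold lower (median -2.10) and 1, Slc6a9, higher (19.1 to 62.6 FPKM). With age in pHes1_EPC, 2 amacrine markers were past 2-fold higher and none lower (median 0.05). Of 10 ganglion cell markers, 2 were past 2-fold lower in P1 pHes1_EPC (median -0.14). With age, 6 ganglion cell markers were past 2-fold lower in pHes1_ENC (median -1.22) and 3 in pHes1_EPC. The part of these cells in the values of the early list was not tested.

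Of 7 late competence genes, 6 at P1 and 6 at P4 were past 2-fold higher in pHes1_EPC (median log2 differences 1.78 and 2.21). The list overlaps the Müller glia markers, which hold 4 of its genes, Sox8, Sox9, Rlbp1 and Car2. Of 12 Müller glia markers 9 at P1 and 10 at P4 were past 2-fold higher in pHes1_EPC. At P1, 1 of these markers, Clu, was past 2-fold lower (3.33 and 0.997 FPKM in pHes1_ENC and pHes1_EPC). The part of Müller glia markers in the values of the late list was not tested. Nfia, a factor of late progenitors and glia, was at 3.19 and 8.09 FPKM in the P1 fractions and at 1.66 and 11.3 FPKM in the P4 fractions. Between ages 2 were past 2-fold higher in pHes1_EPC, the glial genes Rlbp1 (80.4 to 384 FPKM) and Car2 (113 to 248 FPKM). In pHes1_ENC 1 was past 2-fold lower, Sox8 (36.9 to 7.02 FPKM).

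The microRNAs themselves were not measured by these libraries of longer RNA. Of 12 let-7 hairpin lines, 10 to 12 were at 0 in each library, and each value above 0 lay outside its own interval. Among 19 genes of microRNA processing and effector complexes, none was past 2-fold higher in any comparison. At P1, Eif2c4, an Argonaute gene, was past 2-fold lower in pHes1_EPC (11.3 and 2.61 FPKM in pHes1_ENC and pHes1_EPC). At P4, 3 Argonaute genes were past 2-fold lower in pHes1_EPC, Eif2c2 (10.7 and 2.37 FPKM in pHes1_ENC and pHes1_EPC), Eif2c3 (2.57 and 0.700) and Eif2c4 (14.6 and 3.95). Between ages in pHes1_EPC, Dgcr8, Eif2c2 and Eif2c3 were past 2-fold lower at P4. In pHes1_ENC none was past 2-fold between ages on the log2(FPKM + 1) scale. Trim71, also among the let-7 targets below, was under 1 FPKM in every library. By ratio it was 29.6-fold lower at P4 in pHes1_ENC, with at least 9.26-fold allowed by the intervals. In pHes1_EPC its ratio was 15.8-fold, with at least 2.97-fold allowed. Drosha, Xpo5, Dicer1 and the LIN28-linked uridylyltransferases Zcchc6 and Zcchc11 were within 2-fold in every comparison. The median difference of the list was lowest, at -0.39, between the fractions at P4.

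Of 24 further let-7 target genes, those past 2-fold went both ways. In pHes1_EPC at P1, Ccnd1, Cdk6, E2f2 and Rrm2 were past 2-fold higher and Prtg, Arid3b, Nr6a1 and Igdcc3 lower. At P4, Ccnd1, Myc and Rrm2 were past 2-fold higher and Prtg, Arid3b, Nr6a1, Igdcc3 and Irs2 lower. The genes that were higher are mostly of the cell cycle, such as Ccnd1, cyclin D1, at 243 and 1406 FPKM in the P1 fractions and 28.5 and 532 FPKM at P4. All 16 of 16 S-phase markers were past 2-fold higher in P1 pHes1_EPC and 15 of 16 at P4. Rrm2 is itself 1 of these 16 markers, so the lists overlap. The part of the S-phase markers in the Ccnd1 values was not tested. Between ages 5 of the 24 were past 2-fold lower and none higher in pHes1_EPC, and in pHes1_ENC 3 were lower and 1, Nr6a1, higher. The list's medians lay between -0.16 and 0.02 in the 4 comparisons, and the lists were drawn up with earlier results of these data known.

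Across all genes, 3′ UTR length moved with the differences and is therefore given beside the let-7 matches. Among 12226 genes with at least 1 FPKM in a library and an annotated 3′ UTR, the median difference between the fractions at P4 was 0.34 in the shortest and -0.03 in the longest of 4 length classes of equal size. Between ages in pHes1_EPC the corresponding medians were 0.34 and 0.0019, and in pHes1_ENC 0.05 and -0.08. Genes with matches have longer 3′ UTRs, with a median of 3522 bases for 2 or more matches and 1088 bases for none. Within the longest class the median difference between ages in pHes1_EPC was 0.03 for 2417 genes with no match, -0.04 for 529 genes with 1 match and -0.20 for 107 genes with 2 or more. In pHes1_ENC these medians were -0.08, -0.13 and -0.12. Between the fractions, genes of this class with no match and with 2 or more were at -0.07 and -0.03 at P1, and at -0.01 and -0.04 at P4. Within this longest class the median 3′ UTR was 3140, 3590 and 4262 bases for 0, 1 and 2 or more matches. Length was thus not held equal, and its part in these medians was not tested. In the next class, 32 genes with 2 or more matches had a median of 0.15 between ages in pHes1_EPC and 2668 genes with none also had 0.15.

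**Figure D4:**
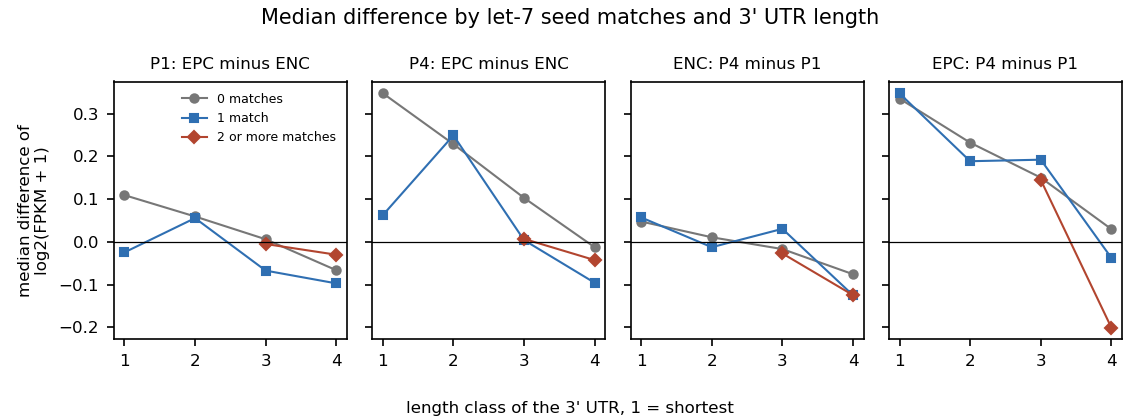
Median difference of log2(FPKM + 1) (vertical axis) by length class of the 3′ UTR (horizontal axis, 1 for the shortest) for genes with 0, 1, or 2 or more let-7 seed matches, in each comparison, over groups of at least 20 genes. For genes with no match the median is lower in each longer class in every comparison. In the longest class, genes with 2 or more matches lie at -0.20 between ages in pHes1_EPC against 0.03 for genes with none. The median 3′ UTR of these groups is 4262 against 3140 bases.

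Subtracting class medians could hardly move the calls of these genes, because the medians were small beside the threshold of 1. In the longest class, which holds Hmga2, Igf2bp1 and Casz1, they were -0.07 and -0.03 between the fractions at P1 and P4. Between ages they were -0.08 in pHes1_ENC and 0.0019 in pHes1_EPC. With the median of the same class of 3′ UTR length subtracted, an adjustment chosen after the data were seen, Igf2bp1 was at -1.45 between ages in pHes1_ENC and at -1.19 in pHes1_EPC, and Hmga2 at 1.52 between the fractions at P4. The genes past 2-fold were the same in every comparison after this subtraction. The longest class ran from 2265 to 23858 bases, so this outcome does not show that the calls are free of 3′ UTR length.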

How the data were processed

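RNA was extracted from 4 sorted cell populations, 1 library each, and sequenced as 36-base single-end reads from randomly primed cDNA without strand. The authors mapped reads to mm9 with TopHat2 2.0.8b (up to 50 placements per read) after bcl2fastq 1.8.4 and computed the deposited FPKM values, with 95% intervals and a status, in Cufflinks 2.1.1. Of 23021 gene lines, 787 of small RNAs were left out, and the line of highest FPKM stood for a symbol, which left 21828 genes. Differences of log2(FPKM + 1) were computed in Python 3.11.15 with pandas 2.3.3, and ratio ranges divide opposite ends of the intervals. The calls, the seed search and the search of 36-base stretches were tested on simulated data. The genes and lists were chosen with earlier results of these data known. Named genes are the 9 genes, and listed genes past 2-fold in the comparison discussed or on whose level a result turns. The 3 genes closest in centred log2(FPKM + 1) values to each gene past 2-fold are named too. Alternatives were another pseudocount, ratios alone, 3 scalings, a level filter, summed lines and non-overlapping intervals. Some genes are not reported here.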

Additional observations from a re-analysis of the deposited data

Results flagged for a closer look

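Casz1 took opposite directions between the ages in the fractions with intervals apart in both, and no other of the 9 genes did so. Its P4 minus P1 difference of log2(FPKM + 1) was 1.03 in pHes1_ENC and -0.57 in pHes1_EPC. With 1 library in each group the difference between the fractions was not tested.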

How the results depend on the processing

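Each count of genes past 2-fold was recomputed under every alternative, and each of the 36 differences under every alternative but the level filter and the non-overlapping intervals, which bear on counts only. Between the fractions at P1 the count was 0, and it was 3 (Lin28a lower, Hmga2 and Ikzf1 higher in pHes1_EPC) with a pseudocount of 0.1 and 3 with ratios alone. With ratios alone the count also became 4 in place of 2 between the fractions at P4, by Lin28a and Lin28b, and 5 in place of 2 between ages in pHes1_EPC, by Lin28a, Lin28b and Ikzf1, all genes under 1 FPKM. Between ages in pHes1_ENC it was 1 (Igf2bp1) in place of 4 with quantile normalization. Other counts stayed within 1.5 times, though Casz1 between ages in pHes1_ENC was at 0.90 when libraries were rescaled to the same total. No difference past 2-fold changed sign under any alternative. Scaling shifted the median of expressed genes by up to -0.27 (same total, ages in pHes1_EPC), and Hmga1 and Igf2bp3 between the fractions at P4 were then at -0.14 in place of 0.14 and 0.12. With 1 library in each group no library could be left out, and genes under 1 FPKM rest on at most 106 reads. No paired analysis was possible because each group holds 1 library.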

Other observations

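Nr6a1, an orphan nuclear receptor of germ and embryonic cells, held the most let-7 seed matches of all 3′ UTRs searched, 8 in 4457 bases. Nr6a1 was at 3.31 and 0.975 FPKM in pHes1_ENC and pHes1_EPC at P1, and at 8.58 and 1.40 FPKM at P4. Its values were highest in P4 pHes1_ENC, where Hmga2 with 4 matches was lowest. Prtg, an early progenitor gene with 2 matches, also had its values in the order of Nr6a1, at 3.08, 0.402, 4.57 and 0.742 FPKM.

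Among 9 genes of the HMG families, which include Hmga1 and Hmga2, 4 were past 2-fold higher in pHes1_EPC at P4 and none lower. Among all genes 9.85% were higher and 5.42% lower. Of the 4, Hmgb1 at 1.14 and Hmgn3 at 1.01 lay near the threshold. Median-of-ratios scaling shifted the median of expressed genes by -0.17 in this comparison, and Hmgb1 and Hmgn3 were not recomputed with it. Hmgb2, a chromatin protein of dividing cells, was at 85.1 and 282 FPKM in pHes1_ENC and pHes1_EPC at P1 and at 29.4 and 199 FPKM at P4. Hmgn2, a nucleosome-binding protein, was past 2-fold higher at P4 in pHes1_ENC, from 234 to 569 FPKM.

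Erythroid markers had a summed FPKM of 185 and 502 in pHes1_ENC at P1 and P4 and of 0.802 and 7.08 in pHes1_EPC.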
